A study of Ictidomys tridecemlineatus with 15 samples.

Results

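Nascent transcription of the heat shock transcription factor Hsf1 and of 9 major chaperone genes was followed through the hibernation cycle in the liver of the 13-lined ground squirrel. The genes were taken by name as Hsf1, Hsp90aa1, Hsp90ab1, Hspa8, Hspa4, Hsph1, Hspd1, Hspe1, Dnajb1 and Dnaja1, and a gene counted as present when its symbol was among the colon-separated names of a transcription unit in the count table. Of these 10 genes 9 had a unit among the 6324 in the table, and no unit carried the name Hsph1. Hspa8, the constitutive cytosolic HSP70, shared its unit with 3 small nucleolar RNA genes of the SNORD14 family and an unnamed gene, so its reads cannot be told apart from theirs, and it is called the Hspa8 unit throughout.

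Heat shock factor 1 is the master regulator of the heat shock response. At rest it is held inactive, in part by the chaperones it induces, and when unfolded protein draws these chaperones away it binds heat shock elements in the promoters of chaperone genes and releases paused RNA polymerase into them. The induced proteins are HSP90, HSP70 and their HSP40 partners in the cytosol, and the HSP60 and HSP10 chaperonin in mitochondria. In a hibernator the liver cools to near ambient temperature in torpor and rewarms at each arousal, and both cold and rewarming bear on protein folding.

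GRO-seq labels RNA made by polymerases that are already engaged when nuclei are isolated and allowed to run on, so its reads count engaged polymerases on a gene and not the amount of mRNA. Liver nuclei from 14 female squirrels were used, each library from a separate animal, all lab-housed and carrying implanted temperature recorders. The groups were SA (3 animals, homeothermic before the onset of hibernation), IBA (3 animals, warm between bouts of torpor), Ent (3 animals, cooling as they entered torpor), ET (3 animals, early torpor) and LT (2 animals, replicates 1 and 3, late torpor). The run-on was performed on isolated nuclei, so it does not measure how fast polymerases moved in the animal. Polymerases that slowed or failed to leave a gene in the cold would still be counted on it. The authors propose slow elongation without termination on some genes in torpor. From these data and mRNA levels they name Hsp90aa1 among genes with more run-on reads in torpor, when mRNA was at its lowest. For such genes they propose that further polymerases started after Ent and before ET. Whether any of this took part in the changes below was not tested. The values are scaled to the size of each library, so they give a gene's share of the engaged polymerases counted. A change in the total transcription of the liver between states cannot be seen in them. Age was not given in the sources used here.

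Total counts per library ran from 3713883 to 8884763, and the 9 units together held 0.0707% to 0.188% of them. The liver identity of the samples was checked on 10 hepatocyte markers, of which 7 had a unit of their own, and their summed level was 8959 to 22191 CPM (counts scaled to a common library size) in the SA and IBA libraries and 3966 to 8216 CPM in the ET and LT libraries, with 4 of the 7 called lower in torpor. No marker of macrophages, stellate cells or blood had a unit of its own, and the 2 endothelial markers with a unit, Pecam1 and Kdr, summed to 132 to 201 CPM in SA and IBA and to 73.8 to 139 CPM in ET and LT. The cholangiocyte marker with a unit, Sox9, carried 16.5 to 41.0 CPM in SA and IBA and 7.07 to 18.1 CPM in ET and LT. Whether the lower levels of these markers in torpor took part in the changes of the chaperone units was not tested. In a bulk tissue, fewer cells of a type and less transcription per cell cannot be told apart. By the study metadata all ET animals came from the second collection season, all LT animals from the first and all IBA animals from the third, while SA and Ent each drew on the first and the third, so ET cannot be told apart from its season.

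Among the 5 states 3 of the 9 units (33.3%) differed at an adjusted p of 0.001 or less, against 25.5% of all 6324 units (edgeR quasi-likelihood test, Benjamini-Hochberg adjustment over all units, as for every adjusted p below). They were Hsp90aa1, the inducible cytosolic HSP90, Hspd1, the mitochondrial HSP60, and Dnajb1, a stress-inducible HSP40. Hsp90aa1 and Hspd1 held a larger share of the run-on reads in torpor than in the warm states, by 3.95-fold and 2.32-fold, and Dnajb1 a smaller one, by 2.19-fold. Hsf1 itself, the sister genes Hsp90ab1 and Hspe1, and both HSP70 units were not called at that threshold.

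**Figure D1:**
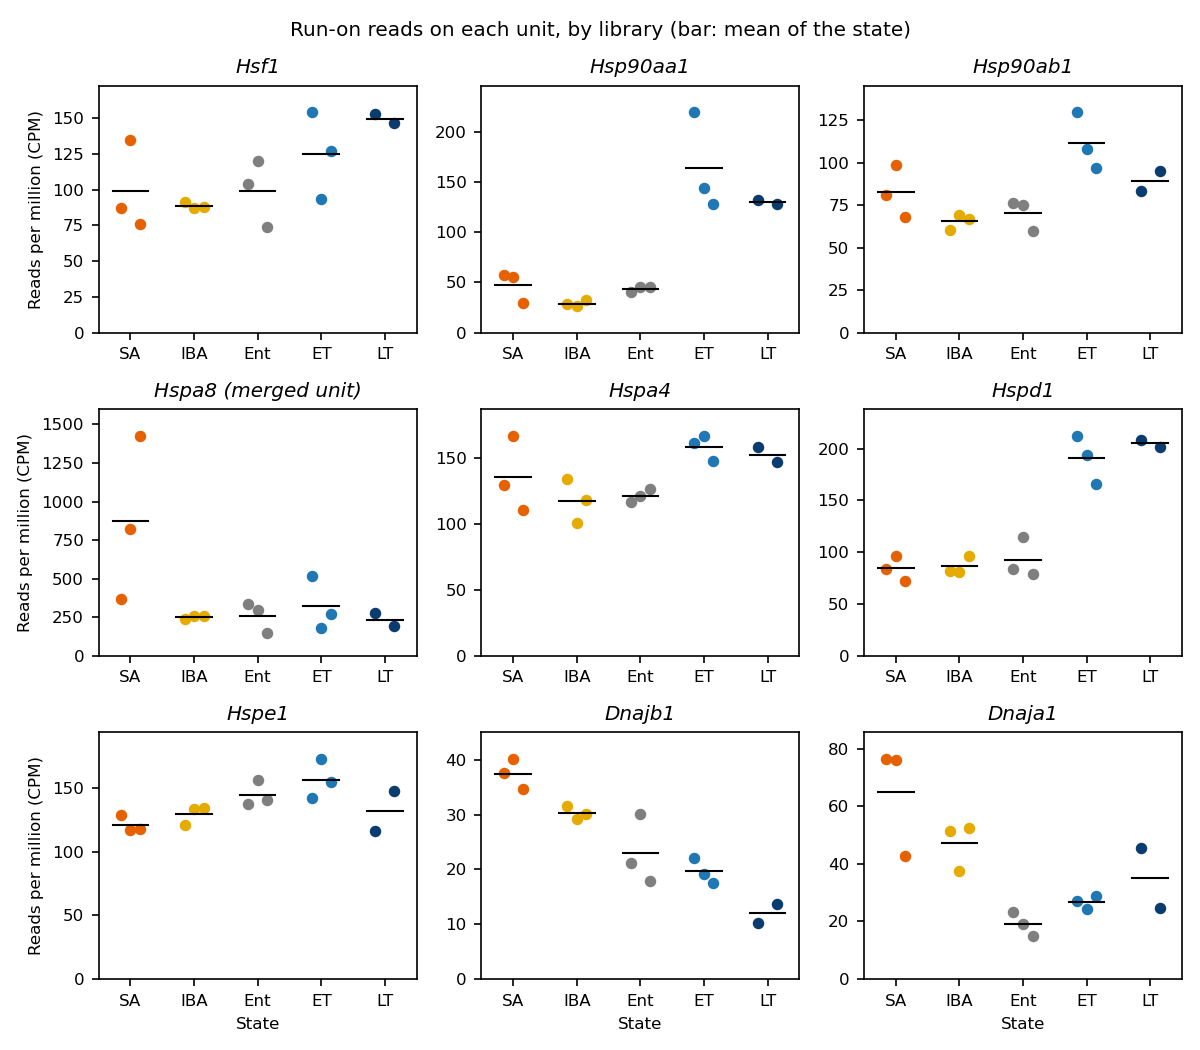
Run-on reads in CPM (vertical axis, from 0, a separate scale for each gene) in each of the 14 libraries (points), by state (horizontal axis), for the 9 units, with a bar at the mean of each state. The 5 torpid libraries of Hsp90aa1 lie between 128 and 219.6 CPM and its 9 other libraries between 26.1 and 57.1 CPM, whereas the torpid libraries of Dnajb1 lie between 10.3 and 22.1 CPM, below every SA and IBA library.

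The units lay on the HiC_Itri_2 assembly and began 500 nt after the annotated start site, with their ends moved downstream by the authors where run-on reads went on past the annotated end. Hsf1 was Itri6:486912-524206 on the minus strand, Hsp90aa1 was Itri5:3874411-3885852 on the plus strand and Hsp90ab1 was Itri8:48123798-48132899 on the plus strand. The Hspa8 unit was Itri3:104645369-104660016 on the minus strand and Hspa4 was Itri1:115082233-115130227 on the minus strand. Hspd1, Itri6:155128182-155159534 on the minus strand, and Hspe1, within Itri6:155160782-155202347 on the plus strand, stood head to head with 1247 nt between their units, the arrangement in which the mammalian HSP60 and HSP10 genes share a promoter region. Dnajb1 was Itri2:207303974-207315544 and Dnaja1 was Itri3:165053227-165065901, both on the plus strand. Each unit covers exons, introns and any downstream extension together, so the reads of these parts cannot be separated.

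Units were extended downstream where run-on reads continued, so the nearest unit upstream on the same strand is given for each gene. For Hspe1 it was Coq10b at 17194 nt and for Hsf1 it was Mroh1 at 27031 nt, and neither of these neighbours passed the test in torpor (log2 fold change 0.16, SE 0.11, adjusted p = 0.19 for Coq10b and -0.28, SE 0.16, adjusted p = 0.154 for Mroh1). For the other 7 units the nearest same-strand unit upstream was 192836 nt or more away, namely G27009 at 648678 nt for Hsp90aa1, Vegfa at 403126 nt for Hsp90ab1, Znf202 at 588428 nt for the Hspa8 unit, the merged unit with Leap2 and UQCRQ for Hspa4, the closest of the 7, FTCDNL1_containing at 1827161 nt for Hspd1, Ilvbl at 1500166 nt for Dnajb1 and Aco1 at 465410 nt for Dnaja1. Whether reads running on from a gene upstream, or past a gene's own end within its extended unit, took part in the changes was not tested. Genes not held in the table were not considered in these distances.

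Compared per kilobase of unit length, the scale on which levels of different genes can be set side by side, the order of the genes changed between the warm and the torpid liver. In IBA the Hspa8 unit carried 17.2 ± 0.857 CPM per kb (SD, n = 3) and Hsp90ab1 7.21 ± 0.495 CPM per kb. Dnaja1 followed at 3.72 ± 0.665 and Hspe1 at 3.22 ± 0.188 CPM per kb. Hspd1, Dnajb1, Hsp90aa1, Hspa4 and Hsf1 lay between 2.38 and 2.76 CPM per kb in IBA, each within the SD of a neighbour in that order. In LT the Hspa8 unit carried 16.0 ± 4.05 CPM per kb (SD, n = 2), Hsp90aa1 11.4 ± 0.292, Hsp90ab1 9.80 ± 0.898, Hspd1 6.55 ± 0.157 and Hsf1 4.02 ± 0.110 CPM per kb. The lowest level in LT was that of Dnajb1 at 1.04 ± 0.209 CPM per kb, under Dnaja1 at 2.77 ± 1.17 CPM per kb. Thus Hsp90aa1, the seventh of the 9 in IBA, stood second in LT, while Dnajb1 went from the sixth place to the last.

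Hsf1, the transcription factor that induces the chaperone genes, carried 87.0, 135 and 75.8 CPM in the 3 SA libraries and 91.5, 87.2 and 87.8 CPM in the 3 IBA libraries. It carried 104, 120.2 and 73.8 CPM in Ent, 154, 93.5 and 127 CPM in ET, and 153 and 147 CPM in LT. Both LT libraries stood above every SA, IBA and Ent library, but SA replicate 2 reached into the ET range and ET replicate 2 into the warm range. The torpid-to-warm difference, the mean of ET and LT less the mean of SA and IBA, was 0.55 on the log2 scale (SE 0.18, adjusted p = 0.0161), and IBA to LT gave 0.75 (SE 0.26, adjusted p = 0.0294). Neither passed 0.001, and Hsf1 did not pass among the 5 states (adjusted p = 0.101). With only the IBA and LT libraries fitted, IBA to LT gave 0.79 (SE 0.10, adjusted p = 0.0009645) and passed. That fit called 967 of all units. The 3 single-gene units whose log2 CPM followed Hsf1 most closely over the 14 libraries were Ilkap, Golga3 and Znf276, with Pearson r of 0.95, 0.94 and 0.92. These are descriptions over libraries that share their states, chosen as the highest of 4704 units.

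Hsp90aa1 encodes the stress-inducible form of cytosolic HSP90, which matures kinases and steroid receptors and holds Hsf1 inactive at rest. Its unit carried 57.1, 55.8 and 29.8 CPM in SA and 28.1, 26.1 and 32.6 CPM in IBA. It carried 40.7, 45.4 and 45.4 CPM in Ent, 219.6, 144 and 128 CPM in ET, and 133 and 128 CPM in LT. Every torpid library stood above every library of the other 3 states. The increase in torpor was 3.95-fold (log2 fold change 1.98, SE 0.18, adjusted p = 1.947e-06). With only the libraries of the first collection season, 1 SA and 2 LT, it was smaller, at 1.21 on the log2 scale, where the lone SA library is assumed to vary like the LT libraries. It rose 3.74-fold from Ent to ET (log2 1.90, SE 0.25, adjusted p = 0.000479) and was 4.49-fold higher in LT than in IBA (log2 2.17, SE 0.27, adjusted p = 5.979e-05). From IBA to Ent the 3 Ent libraries lay above the 3 IBA libraries, at a log2 difference of 0.59 (SE 0.25, adjusted p = 0.119) that did not pass. From ET to LT the log2 difference was -0.33 (SE 0.27, adjusted p = 0.862). The units most like it over the 14 libraries were B3gnt2, Dexi and Glrx3, each at a Pearson r of 0.97.

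Hsp90ab1 encodes the constitutive form of cytosolic HSP90, close in sequence to the inducible form. It carried 81.0, 98.7 and 68.0 CPM in SA, 60.5, 69.2 and 67.1 CPM in IBA, and 76.3, 75.4 and 59.7 CPM in Ent. In torpor it carried 129.7, 108 and 96.7 CPM in ET and 83.4 and 95.0 CPM in LT. All 5 torpid libraries lay above all Ent and IBA libraries, and both LT libraries and ET replicate 3 lay within the SA range. The torpid-to-warm difference was 0.44 on the log2 scale (SE 0.12, adjusted p = 0.00755) and the Ent to ET difference 0.66 (SE 0.17, adjusted p = 0.011), neither past 0.001. With the uniquely mapped reads of each library as its size the torpid-to-warm difference was 0.67 (adjusted p = 0.000315) and passed. The Hsp90ab1 unit lies wholly inside an opposite-strand unit that merges Slc35b2 with unnamed genes, and that unit fell in torpor (log2 fold change -1.15, SE 0.12, adjusted p = 3.794e-06). Whether the counting used strand is not given in the sources used here. Reads from any stretch that both HSP90 genes share would not align uniquely, and only uniquely aligned reads were counted.

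The HSP70 chaperones bind short hydrophobic stretches of unfolded protein in an ATP-driven cycle. The Hspa8 unit carried 367, 820.2 and 1427 CPM in SA, 237, 260.2 and 257 CPM in IBA, and 334, 297 and 149 CPM in Ent. It carried 518, 178 and 270.4 CPM in ET and 276 and 192 CPM in LT. SA replicates 2 and 3 were the highest of all, SA replicate 1 lay below ET replicate 1, and the other states overlapped. The SA to IBA difference was -1.79 on the log2 scale (SE 0.48, adjusted p = 0.0476), and without SA replicate 3 it was -1.24 (SE 0.45, adjusted p = 0.163). Since the unit merges Hspa8 with SNORD14 genes, which lie in introns of Hspa8 in mammals, the spread cannot be assigned to the chaperone. Hspa4, an HSP110-type partner that exchanges the nucleotide of HSP70, carried 129, 167 and 110.3 CPM in SA, 134, 101 and 118 CPM in IBA and 117, 121 and 126 CPM in Ent. It carried 161, 166 and 147 CPM in ET and 158 and 146 CPM in LT. Torpid libraries lay above all IBA and Ent libraries but not above SA replicate 2, and the torpid-to-warm difference was 0.30 (SE 0.11, adjusted p = 0.0338).

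In mitochondria Hspd1 (HSP60) forms the barrel in which imported proteins fold and Hspe1 (HSP10) its lid, and the products work together. Hspd1 carried 83.9, 96.5 and 72.6 CPM in SA, 82.1, 81.3 and 96.3 CPM in IBA, and 83.4, 115 and 78.9 CPM in Ent. It carried 212, 194 and 166 CPM in ET and 209 and 202 CPM in LT. The torpid libraries stood above every library of the other 3 states with a wide gap. The increase in torpor was 2.32-fold (log2 1.21, SE 0.12, adjusted p = 3.804e-06) and from IBA to LT 2.37-fold (log2 1.24, SE 0.18, adjusted p = 0.000163). From Ent to ET the log2 difference was 1.04 (SE 0.17, adjusted p = 0.00111), just outside the threshold.

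Hspe1 carried 129, 117 and 118 CPM in SA, 121, 134 and 134 CPM in IBA, and 137, 156 and 141 CPM in Ent. It carried 142, 173 and 155 CPM in ET and 116 and 148 CPM in LT. Its torpid libraries overlapped the warm ones, since LT replicate 1 was the lowest of all 14. The torpid-to-warm difference was 0.20 on the log2 scale (SE 0.09, adjusted p = 0.0754) and did not pass. Its unit of 40194 nt reached far downstream, and Mob4, which follows Hspe1 in the RefSeq table of another assembly of this species, had no unit of its own. Whether reads of Mob4 are counted in the Hspe1 unit was not tested. The Hspd1 unit overlaps Coq10b, on the opposite strand, over 15406 nt.

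The HSP40 proteins deliver clients to HSP70 and start its ATPase. Dnajb1, the stress-inducible member, carried 37.6, 40.2 and 34.7 CPM in SA, 31.5, 29.3 and 30.0 CPM in IBA, and 21.1, 30.1 and 17.9 CPM in Ent. It carried 22.1, 19.2 and 17.6 CPM in ET and 10.3 and 13.7 CPM in LT. The 5 torpid libraries lay below all 6 warm libraries, the LT pair below every other library, and the Ent libraries spanned both ranges. In torpor the level fell 2.19-fold (log2 fold change -1.13, SE 0.16, adjusted p = 4.18e-05) and from IBA to LT 2.52-fold (log2 -1.33, SE 0.24, adjusted p = 0.000638). No single step passed, with log2 differences of -0.31 (SE 0.20) from SA to IBA, -0.39 (SE 0.20) from IBA to Ent, -0.23 (SE 0.20) from Ent to ET and -0.71 (SE 0.23, adjusted p = 0.303) from ET to LT. Its reads were the fewest of the 9 units, 68 to 292 a library. The Tecr unit, head to head with Dnajb1 at 1282 nt, gave a torpid-to-warm log2 difference of 0.42 (SE 0.17, adjusted p = 0.051).

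Dnaja1, a constitutive HSP40, carried 76.4, 75.9 and 42.7 CPM in SA, 51.4, 37.4 and 52.5 CPM in IBA and 23.2, 19.2 and 15.1 CPM in Ent. It carried 27.2, 24.4 and 28.9 CPM in ET and 45.7 and 24.6 CPM in LT. The 3 Ent libraries were the lowest of all 14, and LT replicate 1 lay within the warm range while LT replicate 3 lay within that of ET. The IBA to Ent difference was -1.29 on the log2 scale (SE 0.28, adjusted p = 0.0107) and the torpid-to-warm difference -0.85 (SE 0.21, adjusted p = 0.00336), neither past 0.001. Among the 5 states its adjusted p was 0.00114, the closest to the threshold of the units outside it. DESeq2 called Dnaja1 from IBA to Ent (log2 -1.29) and in torpid against warm (-0.83), where it called 447 and 3054 of all units. Without SA replicate 3 the torpid-to-warm difference in edgeR was -0.96 (SE 0.19, adjusted p = 0.000883) and passed, with 2064 of all units.

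**Figure D2:**
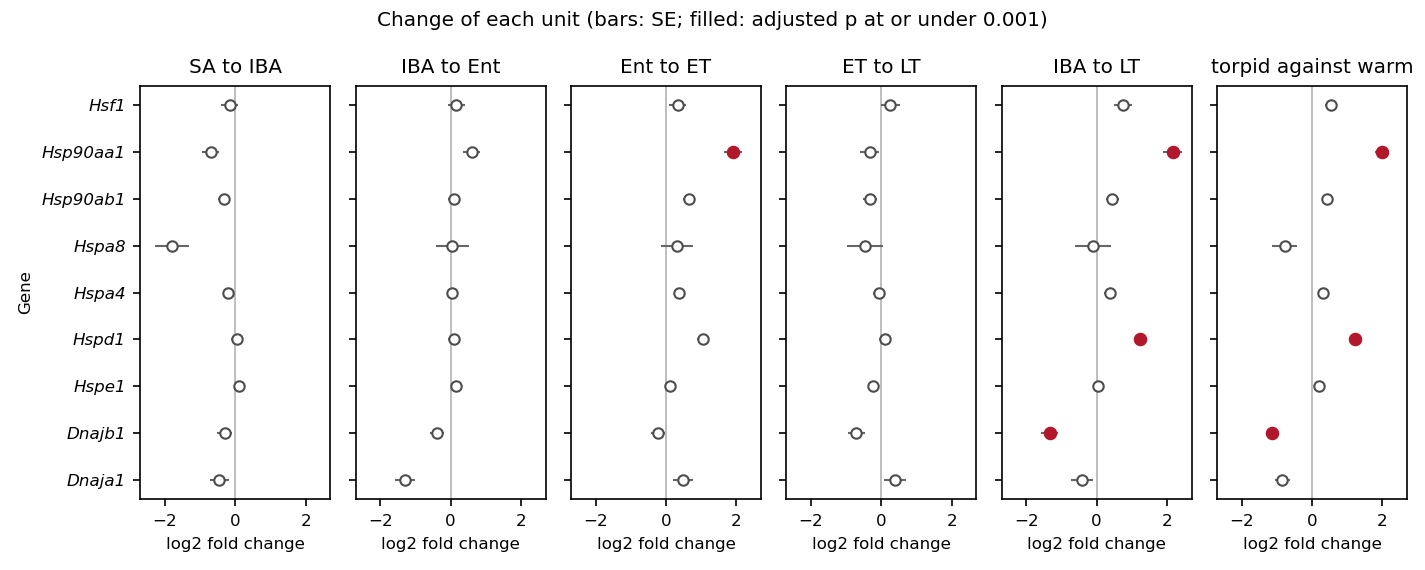
Log2 fold change (horizontal axis) of the 9 units (rows) in the 5 transitions and in torpid (ET and LT) against warm (SA and IBA), with bars for the SE and filled points for an adjusted p of 0.001 or less. Filled points stand only at Hsp90aa1 from Ent to ET, and at Hsp90aa1, Hspd1 and Dnajb1 from IBA to LT and in torpid against warm.

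The first step, SA to IBA, compares warm animals before and within hibernation. No member was called (0 of 9, against 0.0158% of all units), and 2 had an unadjusted p of 0.05 or less against 22%. DESeq2 called 0 members and 221 of all units, and limma-voom 0 members and 1 of all units. In the edgeR fit 1 member, the Hspa8 unit, passed an adjusted p of 0.05, against 5.22% of all units. IBA to Ent compares warm animals with those that had begun to cool. No member was called (0 of 9, against 0.0316%), and 2 had an unadjusted p of 0.05 or less against 32.5%. Limma-voom called 0 members and 1 of all units, and DESeq2 called 1 member, Dnaja1, and 447 of all units. In the edgeR fit Dnaja1 was the unit that passed an adjusted p of 0.05, against 16.1% of all units.

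Ent to ET covers the drop into deep torpor. Of the 9 units 1 was called, Hsp90aa1, which rose, against 2.21% of all units called and 1.01% called higher. At an adjusted p of 0.05 Hsp90aa1, Hspd1 and Hsp90ab1 passed (33.3%, against 28.8% of all units), and the median of the 9 log2 changes was 0.38 against -0.01 over all units. The Hsp90aa1 call was lost with any 1 of the 3 Ent libraries, the 3 ET libraries or IBA replicate 3 left out. Its adjusted p then lay between 0.001025 and 0.00364, at log2 changes of 1.64 to 2.05. Calls over all units fell too, from 140 to 0, 7 and 64 without Ent replicates 1, 2 and 3. They fell to 6, 0 and 16 without ET replicates 1, 2 and 3, and to 47 without IBA replicate 3. Without SA replicate 2, on the other hand, Hspd1 passed too, where 198 of all units were called.

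ET to LT compares early with late torpor. No member was called (0 of 9, against 0% of all units), and 1 had an unadjusted p of 0.05 or less against 8.7%. That member was Dnajb1, at a log2 difference of -0.71. DESeq2 called 0 members and 37 of all units, and limma-voom 0 members and 0 of all units. In the edgeR fit 0 members and 0.269% of all units passed an adjusted p of 0.05. IBA to LT closes the cycle between late torpor and the warm interbout state. Of the 9 units 3 were called (33.3%, against 17.4% of all units), Hsp90aa1 and Hspd1 higher (9.69% of all units were higher) and Dnajb1 lower (7.73% were lower), and 4 passed an adjusted p of 0.05 (44.4%, against 49.8%), the fourth being Hsf1. Without IBA replicate 1, IBA replicate 2, LT replicate 1 or LT replicate 3 only Hsp90aa1 was called. Calls over all units were then 609, 598, 242 and 419, in place of 1102 of 6324. The Dnajb1 call was lost when any of 9 of the 14 libraries was left out.

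In torpid against warm 3 of the 9 units were called (33.3%), close to the 36.3% of all units that were called, with Hsp90aa1 and Hspd1 higher (18.6% of all units) and Dnajb1 lower (17.6%). The same 3 units were those whose torpid and warm libraries did not overlap, 2 higher and 1 lower, where 40.5% of all units did not overlap, 21.1% higher and 19.5% lower. At an adjusted p of 0.05 7 of 9 passed (77.8%, against 64.5%), and among the 5 states 6 of 9 did (66.7%, against 62%). The median of the 9 log2 differences was 0.30 against -0.04 over all units. The share of members called in torpor was therefore close to that of the table as a whole, while the 3 calls of this comparison stood with each of the 14 libraries left out in turn, at adjusted p of 0.000526 or less.

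Collection season could be held fixed in part of the data. Ent and LT share the first season, and with only its 2 Ent and 2 LT libraries Hsp90aa1 was higher in LT by 1.60 on the log2 scale (SE 0.15, adjusted p = 0.00507), Hspd1 by 1.05 (SE 0.18, adjusted p = 0.0149), and Dnajb1 lower, at -1.09 (SE 0.31, adjusted p = 0.0494). With all libraries the same differences were 1.57, 1.15 and -0.94. Neither fit called a member at 0.001, where 0% of all units were called within the season and 2.29% with all libraries. With season as a covariate and ET left out, no member was called from IBA to LT (0 of 9, against 3.15% of all units) or from SA and IBA to LT (0 of 9, against 6.31%). The log2 differences of Hsp90aa1, Hspd1 and Dnajb1 from SA and IBA to LT were then 1.72, 1.17 and -1.66, at adjusted p of 0.00179, 0.00326 and 0.0018. From the 1 SA to the 2 LT libraries of the first season Hspd1 differed by 1.31, Hsp90aa1 by the 1.21 given above, and Dnajb1, which then missed the threshold, by -1.62. A lone SA library shows no spread within SA, so only effect sizes are given for this fit. The IBA to LT fit and that of SA and LT within the season were planned and the others were chosen after the data were seen.

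Ratios of reads within a library do not depend on how libraries are scaled, and they compare the members of a family that work side by side. The reads on Hsp90aa1 were 0.378 to 0.705 times those on Hsp90ab1 in the 6 warm libraries, 0.533 to 0.759 times in the 3 Ent libraries and 1.33 to 1.69 times in the 5 torpid libraries. The inducible HSP90 gene thus had fewer reads than the constitutive one in every warm and Ent library and more in every torpid library. The mean log2 ratio differed by 1.55 between torpid and warm. For Hspd1 to Hspe1 the log2 ratio lay between -0.72 and -0.27 in the warm libraries and between 0.10 and 0.85 in the torpid ones, a difference of 0.98 in the mean. This ratio is one of units, since the Hspe1 unit may hold reads of Mob4 and the Hspd1 unit overlaps Coq10b on the other strand. For Dnajb1 to Dnaja1 the difference was -0.19, and LT replicate 1 held the lowest ratio, at -2.15 on the log2 scale. The 3 Ent libraries held the highest log2 ratios of all libraries for this pair, at -0.14, 0.65 and 0.25. The pairs were chosen after the values were seen, so the ratios are a description with no test.

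**Figure D3:**
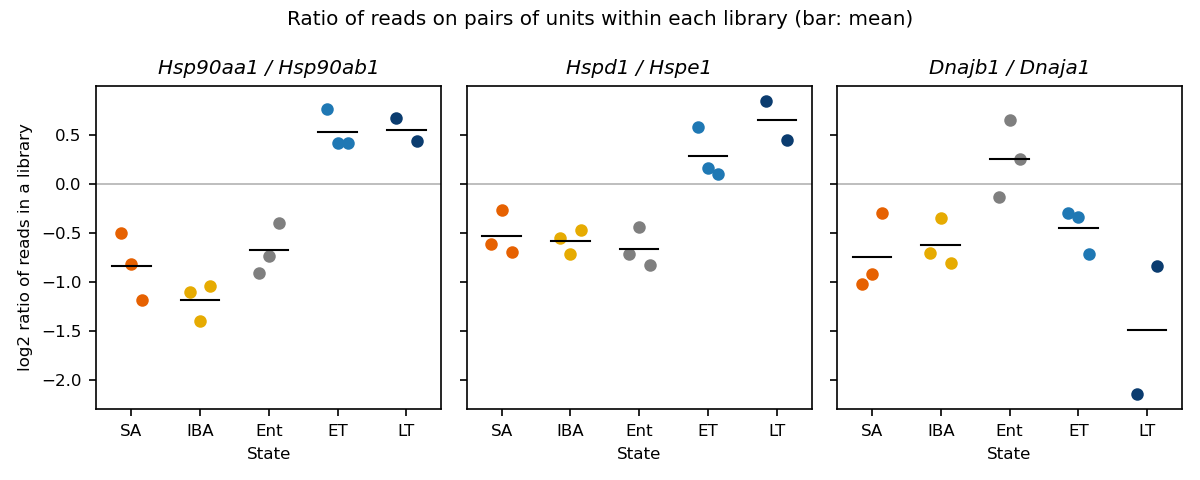
Log2 ratio of reads on pairs of units within each library (vertical axis), by state (horizontal axis), with a bar at the mean of each state and a line at equal reads. The 5 torpid libraries lie above 0 and the 9 other libraries below 0 for Hsp90aa1 to Hsp90ab1 and for Hspd1 to Hspe1, while the Dnajb1 to Dnaja1 ratios of torpid and warm libraries overlap.

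Over the 14 libraries the log2 CPM of Hsp90aa1 followed that of Hspd1 (Pearson r 0.93) and Hsp90ab1 (0.87) more closely than that of Hsf1 (0.72), and it ran against that of Dnajb1 (-0.64). Dnaja1 and Dnajb1 had an r of 0.51, and the Hspa8 unit had an r between -0.54 and 0.53 with the other 8. These are descriptions of 14 points that fall into 5 states and share their libraries.

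The rest of the folding machinery was taken from 12 lists of heat shock factors, chaperones and co-chaperones. Apart from the members these lists, as reported here, hold 145 genes, of which 58 had a unit of their own, 29 were in merged units and 58 had none. In torpid against warm 10 of the 58 rose, 5 fell and 43 did not pass (25.9% called, against 36.3% of all units), at a median log2 difference of 0.18 against -0.04. From IBA to LT 7 rose and 1 fell (13.8%, against 17.4%), and from Ent to ET 2 rose and 1 fell (5.17%, against 2.21%).

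Among heat shock factors and their regulators, 2 of 5 other units rose in torpor. Hsf2, the factor that partners Hsf1, went from means of 77.5 ± 12.2 CPM in SA and 75.1 ± 6.49 CPM in IBA (SD, n = 3 each) to 171 ± 23.7 CPM in ET (n = 3) and 252 ± 25.1 CPM in LT (n = 2), a log2 change of 1.44 (SE 0.12, adjusted p = 6.432e-07). Eef1a1, a translation elongation factor reported to take part in Hsf1 activation, rose by 1.23 on the log2 scale (SE 0.13, adjusted p = 4.515e-06), though copies of this gene elsewhere in the genome make its count uncertain. The change of Hsf2 was larger than that of Hsf1, at 0.55, though the difference between these genes was not tested.

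No other HSP70 gene passed in torpor, and of the 6 HSP70 units of the list, Hspa4 included, the median log2 difference was 0.37. Hspa1a, the strictly inducible HSP70, gave a log2 difference of 1.68 (SE 0.41, adjusted p = 0.0032), with 12.5 ± 1.87 CPM in SA, 9.48 ± 10.0 CPM in IBA, 23.2 ± 12.7 CPM in Ent, 43.9 ± 8.27 CPM in ET (SD, n = 3 each) and 26.1 ± 2.80 CPM in LT (n = 2). It is named here after its values were seen. Hsp90b1, the HSP90 of the endoplasmic reticulum, gave -0.54 (SE 0.25, adjusted p = 0.0725). The only small heat shock list member with a unit, Hspb11, fell by 0.89 (SE 0.16, adjusted p = 0.000389), and its product is known as a part of intraflagellar transport.

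The HSP40 lists split in direction. Dnaja2, a constitutive cytosolic HSP40, rose by 1.09 on the log2 scale (SE 0.12, adjusted p = 8.756e-06), Dnajb6, an inhibitor of protein aggregation, rose by 0.53 (SE 0.11, adjusted p = 0.000856) and Dnajc11, of the mitochondrial membrane, rose by 0.94 (SE 0.10, adjusted p = 6.945e-06). Dnaja3, the HSP40 of the mitochondrial matrix, fell by 0.95 (SE 0.15, adjusted p = 0.000125) and Dnajc16 fell by 0.61 (SE 0.10, adjusted p = 0.000127). Of the 9 A and B type genes with a unit, members included, 2 rose and 2 fell, and of the 13 C type genes 1 rose and 1 fell.

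Among 10 co-chaperones of HSP90, 1 rose and 1 fell. Ppp5c, a phosphatase that acts on HSP90 clients, fell by 1.67 (SE 0.30, adjusted p = 0.000377), and Chordc1, a zinc-binding partner of HSP90, rose by 0.91 (SE 0.13, adjusted p = 5.68e-05). The median log2 difference of the 10 was -0.25. None of the 3 HSP70 co-chaperones with a unit, Bag3, Sil1 and Grpel1, passed, and of the 5 mitochondrial chaperone units, members included, Hspd1 rose and Dnaja3 fell. Of the 6 chaperonin units 1 rose and 1 fell, and both prefoldin units rose. Cct4, a subunit of the cytosolic chaperonin, rose by 0.80 (SE 0.11, adjusted p = 3.737e-05), the prefoldin subunit Vbp1 by 0.98 (SE 0.12, adjusted p = 1.665e-05) and its relative Pdrg1 by 1.04 (SE 0.13, adjusted p = 2.405e-05), while Mkks, a chaperonin-like protein of the basal body, fell by 2.27 (SE 0.16, adjusted p = 3.03e-07). Of 10 endoplasmic reticulum chaperones 1 rose, the disulfide isomerase Pdia3, by 0.76 (SE 0.15, adjusted p = 0.000763).

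**Figure D4:**
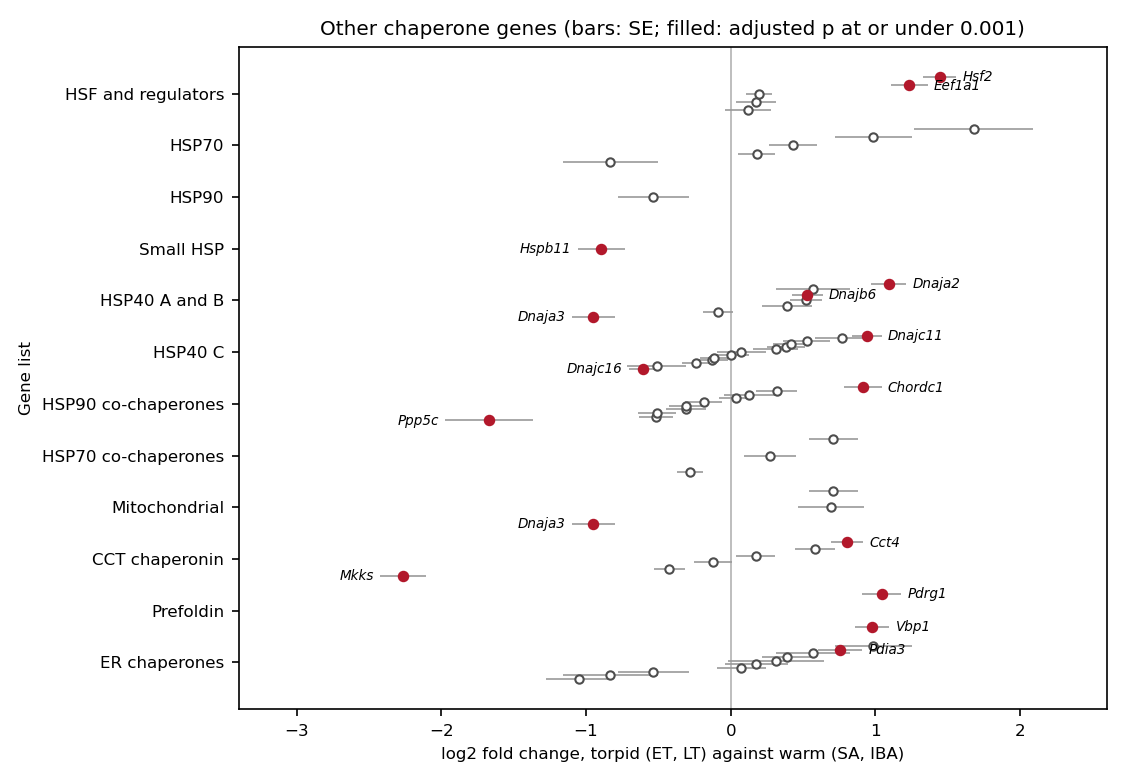
Log2 fold change in torpid (ET and LT) against warm (SA and IBA) (horizontal axis) of the 58 other chaperone genes with a unit of their own, by list (rows, genes in 2 lists shown in both), with bars for the SE and filled, named points for an adjusted p of 0.001 or less. The 10 genes that rose lie between 0.53 and 1.44 and the 5 that fell between -2.27 and -0.61.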

How the data were processed

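Single-end GRO-seq reads were trimmed with cutadapt, aligned to HiC_Itri_2 with BWA and counted on gene bodies with featureCounts by the authors, who extended units with fstitch, merged overlapping genes and left out the 500 nt after each start site. The table the authors deposited holds raw counts for each unit, not normalized, and it also gives each unit's length, another unit used here only for CPM per kb. LT replicate 2 has no column and was not analysed here. The authors report that they removed an LT library of relatively poor quality, which was also an outlier in principal component analysis. The authors used DESeq2. Counts from 14 libraries were fitted here with edgeR 4.0.16 in R 4.3.3 (TMM, quasi-likelihood, design of 5 states, no filter), with Benjamini-Hochberg adjustment over 6324 units and a threshold of 0.001, and the fit was tested on simulated data. CPM used TMM library sizes, and log2 CPM a prior count of 2. Depth ranged over the totals given above, and the smallest count of a member in a library was 68, for Dnajb1. A symbol is matched within a unit's name.

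Named genes are every member with a unit, the called non-member units of each list (at most 4 by size), the 3 single-gene units most like Hsf1 and Hsp90aa1, and each member's nearest upstream unit on its strand. The members and the gene and marker lists were chosen with earlier results of these data known. A gene of the lists is not reported here. Replicate numbers did not pair the libraries. Results were recomputed with DESeq2 1.42.0, with limma 3.58.1 (voom), and with other library sizes, a minimum of 10 counts, single-gene units, compared states only, a threshold of 0.05, a replicate block, collection season and leaving out each library. Figures used matplotlib 3.10.9 under Python 3.11.15.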

Additional observations from a re-analysis of the deposited data

How the results depend on the processing

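The calls of Hsp90aa1, Hspd1 and Dnajb1 in torpid against warm kept their direction under every alternative run, and their side of the threshold under all but the season fits and, for Dnajb1, the single season. The counts of called members moved with the tool, the scaling, the threshold and the season. The Ent to ET count, 1 of 9 with 140 of all units called, was 3 with DESeq2, which called 937 of all units. It was 2 with limma-voom (135 of all units), with RLE normalization (157) or with uniquely mapped reads as library size (244). With the compared states only it was 0, and 0 of all units were called. DESeq2 gave 1 from IBA to Ent, where it called 447 of all units against 2 with edgeR. Among the 5 states DESeq2 gave 6, and its count over all units is not given here. A threshold of 0.05 gave 7 in torpid against warm, 6 among the 5 states, 3 for Ent to ET, 1 for SA to IBA and 1 for IBA to Ent. With season as a covariate and without ET the count was 0 from IBA to LT, 0 in the overall test, which then covers 4 states, and 0 for LT against SA and IBA. With each library left out the count ran from 0 to 2 from Ent to ET, where 0 to 198 of all units were called. It ran from 1 to 3 from IBA to LT (242 to 1220 of all units) and from 3 to 4 in torpid against warm (1610 to 2297). Among the 5 states it ran from 2 to 3, and it stayed at 0 elsewhere. Runs that left out a library or a state held fewer libraries, and the cause of these moves was not tested.

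The replicate numbers did not pair the libraries (26 same-number pairs, median r 0.03). With the replicate block the Ent to ET count was 0, where 52 of all units were called, with Hsp90aa1 at 1.88 (adjusted p = 0.00121). Dnajb1 from IBA to LT was then -1.27 (adjusted p = 0.00206).

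The differences below, not all of them near 0, changed sign between fits, and none of these was called in either fit. The Hspa8 unit gave -0.037 from IBA to Ent with limma-voom and, from IBA to LT, 0.076 with uniquely mapped reads and 0.21 with the season covariate. The season covariate gave -0.0048 for Hspd1 from IBA to Ent and -0.030 for Hspe1 from IBA to LT. IBA to Ent within 1 season gave -0.25 for Hsf1, -0.12 for Hsp90ab1, -0.74 for the Hspa8 unit and -0.12 for Hspd1. With each library left out, SA to IBA ran from -0.32 to 0.13 for Hsf1 and -0.058 to 0.15 for Hspd1. IBA to Ent ran from -0.17 to 0.33 for the Hspa8 unit, -0.054 to 0.15 for Hspa4 and -0.091 to 0.20 for Hspd1. Ent to ET ran from -0.21 to 0.60 for the Hspa8 unit and -0.38 to 0.026 for Dnajb1. ET to LT ran from -0.75 to 0.062 for the Hspa8 unit and -0.13 to 0.77 for Dnaja1. IBA to LT ran from -0.39 to 0.13 for the Hspa8 unit and -0.16 to 0.19 for Hspe1, Ent to LT from -0.43 to 0.087 and -0.32 to 0.031, and the Dnajb1 to Dnaja1 log2 ratio from -0.33 to 0.13.

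Uniquely mapped reads as library size moved the median of all units by 0.23 in torpid against warm, 0.18 for IBA to LT, 0.15 for IBA to Ent and 0.12 for Ent to ET, and total counts moved torpid against warm by 0.12. Calls from IBA to LT were then 864 higher and 345 lower, in place of 613 and 489, and in torpid against warm 1685 and 774, in place of 1177 and 1116.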
